A study of Mus musculus with 12 samples.

Results

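The transcripts of 10 CC chemokine ligands, namely Ccl2, Ccl3, Ccl4, Ccl5, Ccl6, Ccl7, Ccl9, Ccl17, Ccl22 and Ccl24, were followed in RNA-Seq data of murine bone marrow-derived macrophages (BMMs). They were picked by gene symbol from the 38887 genes of the files, which hold 24 CC ligand genes in all. BMMs of 3 WT and 3 KO mice, aged 3 to 4 months, had been grown for 6 days with 50 ng/ml M-CSF and were either left untreated (M0) or received 20 ng/ml IL-4 for 8 h (M2), which gave 4 groups of 3 libraries. KO mice carried loxP sites around exons 4 and 5 of Igf2bp2, which encodes an mRNA-binding protein, together with Cre recombinase in the Lyz2 locus of myeloid cells. WT littermates had no floxed allele, and only some of them carried Cre. Values are expected counts per gene, shown as CPM (counts relative to the library total) after TMM scaling. Where different ligands are compared with each other, TPM is used, which also corrects for transcript length.

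CC chemokines are small secreted proteins with adjacent cysteines that attract leukocytes through G protein-coupled receptors. CCL2 and CCL7 bind CCR2 and draw monocytes, CCL3, CCL4 and CCL5 attract monocytes and T cells, and CCL6 and CCL9 are rodent chemokines of the CCR1 group. CCL17 and CCL22 act on CCR4 of T cells and CCL24, also called eotaxin-2, on CCR3 of eosinophils. IL-4 signals through the transcription factor STAT6, and macrophages that have met it are known for making CCL17, CCL22 and CCL24.

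Libraries held 20011792 to 29832430 counts in WT and 26568719 to 39632770 counts in KO, so that rare transcripts were sampled more deeply in KO. Gene-level counts include the exons of Igf2bp2 that remain after deletion and do not check the deletion, and they gave 98.0 ± 20.7 CPM (SD, n = 3) for WT and 90.8 ± 5.53 CPM for KO without IL-4, and 211 ± 28.7 and 135 ± 9.54 CPM with it. Lyz2 lay between 4185 and 10544 CPM in the WT libraries and between 11.0 and 33.2 CPM in the KO libraries, and its loss and that of IGF2BP2 cannot be told apart here. The 7 macrophage markers summed to between 5042 and 5704 CPM in all libraries, although with IL-4 Cd14 went from between 567 and 715 to between 70.8 and 86.2 CPM, Fcgr1 from between 94.7 and 113 to between 43.7 and 60.9 CPM, and Adgre1 from between 760 and 1038 to between 1114 and 1528 CPM. Between the genotypes in M0, Itgam was at 900 to 947 CPM in WT and 1193 to 1312 CPM in KO and Mertk at 4.52 to 5.98 and 6.29 to 6.80 CPM. Csf1r was at 1600 to 1626 and 1629 to 1733 CPM, and none of these overlapped, as for 31.1% of all genes tested. In M2, Adgre1 was at 1316 to 1528 CPM in WT and 1114 to 1204 CPM in KO and Csf1r at 1780 to 1851 and 1880 to 1979 CPM. These did not overlap either, as for 24.8% of all genes tested, and the other macrophage markers did. By contrast, T and NK cell, B cell and erythroid markers each stayed below 0.14 CPM in sum. A single library stood apart for the chemokines. WT M0 replicate 3 had the highest CPM of the 3 WT M0 libraries for each of the 9 ligands tested, which was so for 40.6% of all genes tested, and results that rest on it are given with and without it. It was picked by the values of these ligands, so leaving it out lowers WT M0 for each of them. A call gained that way is a description only.

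Of the 10 ligands, 9 passed the filter on low counts and were tested among 12846 genes with edgeR's quasi-likelihood test, with p adjusted over all of these genes by the Benjamini-Hochberg method. Ccl17 did not pass. A ligand was called changed at an adjusted p under 0.05.

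A group of 6 ligands made up nearly all of the CC ligand transcripts. In untreated WT macrophages Ccl9 led with 3123 ± 57.5 TPM (mean ± SD, n = 3), before Ccl2 with 1644 ± 306 TPM. Ccl6 with 832 ± 218 TPM and Ccl7 with 593 ± 157 TPM had overlapping ranges and came next, followed by Ccl3 with 310 ± 18.9 TPM and Ccl4 with 208 ± 38.3 TPM. The other four were rare. Ccl5 reached 4.34 ± 0.0781 TPM and Ccl22 0.377 ± 0.0513 TPM, while Ccl24 with 0.11 ± 0.149 TPM overlapped with Ccl17, which was listed at 0. The KO M0 libraries had the same order of means, from Ccl9 with 3446 ± 241 TPM to Ccl17 at 0, but there the ranges of Ccl22 and Ccl24 overlapped, while those of Ccl24 and Ccl17 did not.

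After IL-4 the order was different. Ccl2 led in WT M2 with 4842 ± 34.7 TPM, before Ccl7 with 4259 ± 126 TPM and Ccl9 with 3044 ± 247 TPM, and no ranges overlapped among them. Ccl6 with 644 ± 116 TPM was followed by Ccl4 with 410 ± 28.8 TPM, which now lay above Ccl3 with 276 ± 13.1 TPM. Ccl24 had moved to the seventh place with 22.2 ± 8.30 TPM, and Ccl5 with 5.02 ± 3.68 TPM and Ccl22 with 3.67 ± 1.31 TPM overlapped. In KO M2 the first 7 ligands had the same order, with 5285 ± 269 TPM for Ccl2, 4697 ± 270 TPM for Ccl7 and 2730 ± 422 TPM for Ccl9. Ccl22 with 5.24 ± 1.41 TPM and Ccl5 with 3.95 ± 0.309 TPM overlapped in KO M2 also.

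The 10 ligands together took 0.672 ± 0.0723% of all TPM in WT M0 and 0.782 ± 0.00946% in KO M0, and 1.35 ± 0.0233% in WT M2 and 1.42 ± 0.0416% in KO M2. Ccl9 supplied 46.9 ± 4.92% of their sum in WT M0 but 22.5 ± 1.43% in WT M2. Ccl2 and Ccl7 together supplied 33.1 ± 3.16% of the sum in WT M0 and 67.4 ± 1.77% in WT M2, with 37.5 ± 2.95% in KO M0 and 70.1 ± 3.39% in KO M2, and in neither genotype did the M0 and M2 ranges overlap. These shares describe the make-up and were not tested.

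**Figure D1:**
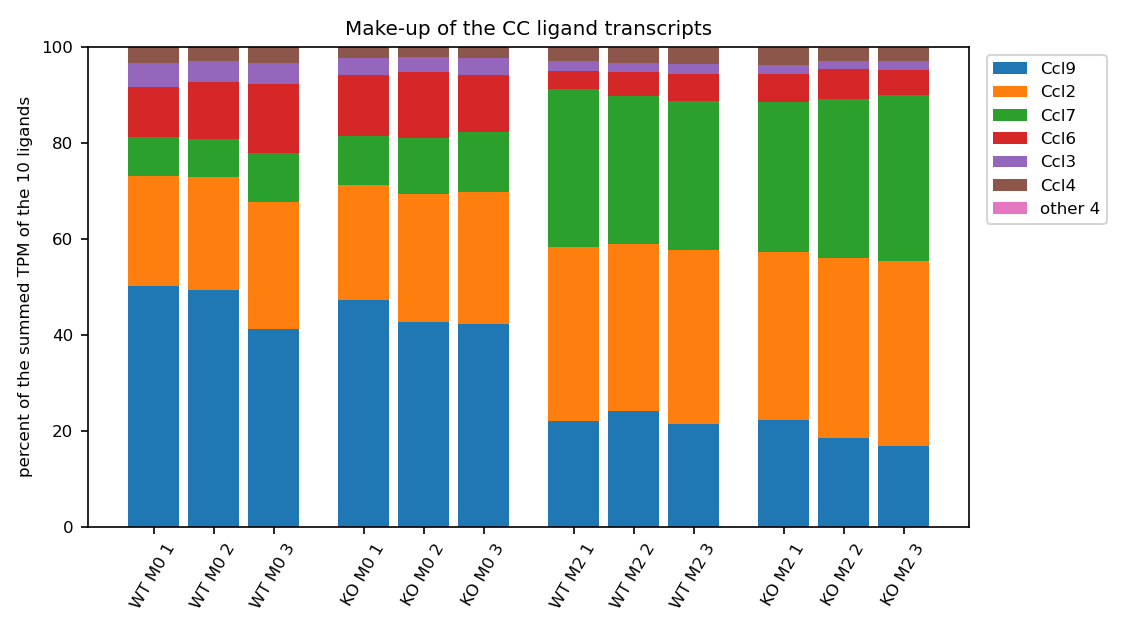
Each bar is 1 library and shows the percent of the summed TPM of the 10 ligands that each ligand supplied, with Ccl5, Ccl17, Ccl22 and Ccl24 drawn together as other 4. Ccl9 takes 41.2 to 50.1% of the WT M0 bars and 21.4 to 24.1% of the WT M2 bars, and Ccl7 widens from 7.89 to 10.3% to 30.8 to 32.8%.

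IL-4 raised 5 of the 9 tested ligands in WT macrophages, where 24.9% of all genes were called higher and 25.1% lower, and it raised 5 of 9 in KO macrophages, where 26.8% of all genes were called higher and 26.0% lower. These were Ccl2, Ccl4, Ccl7, Ccl22 and Ccl24 in both genotypes. The other 4, Ccl3, Ccl5, Ccl6 and Ccl9, were called neither higher nor lower in this fit, which ignores pairs of libraries. With M0 and M2 libraries of the same number as pairs, Ccl6 was called lower in both genotypes and Ccl9 lower in KO. The median log2 fold change of the 9 ligands was 1.04 in WT and 1.43 in KO, beside a median of -0.0076 and 0.014 over all genes tested. One of the 5, Ccl24, exceeded the filter on low counts in no M0 library and was tested through its M2 libraries alone, so that passing the filter already required it to differ. Without it, 4 of 8 ligands were called higher in either genotype, with medians of 0.66 in WT and 0.73 in KO. In bulk RNA, more cells that make a transcript and more transcript per cell cannot be told apart.

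**Figure D2:**
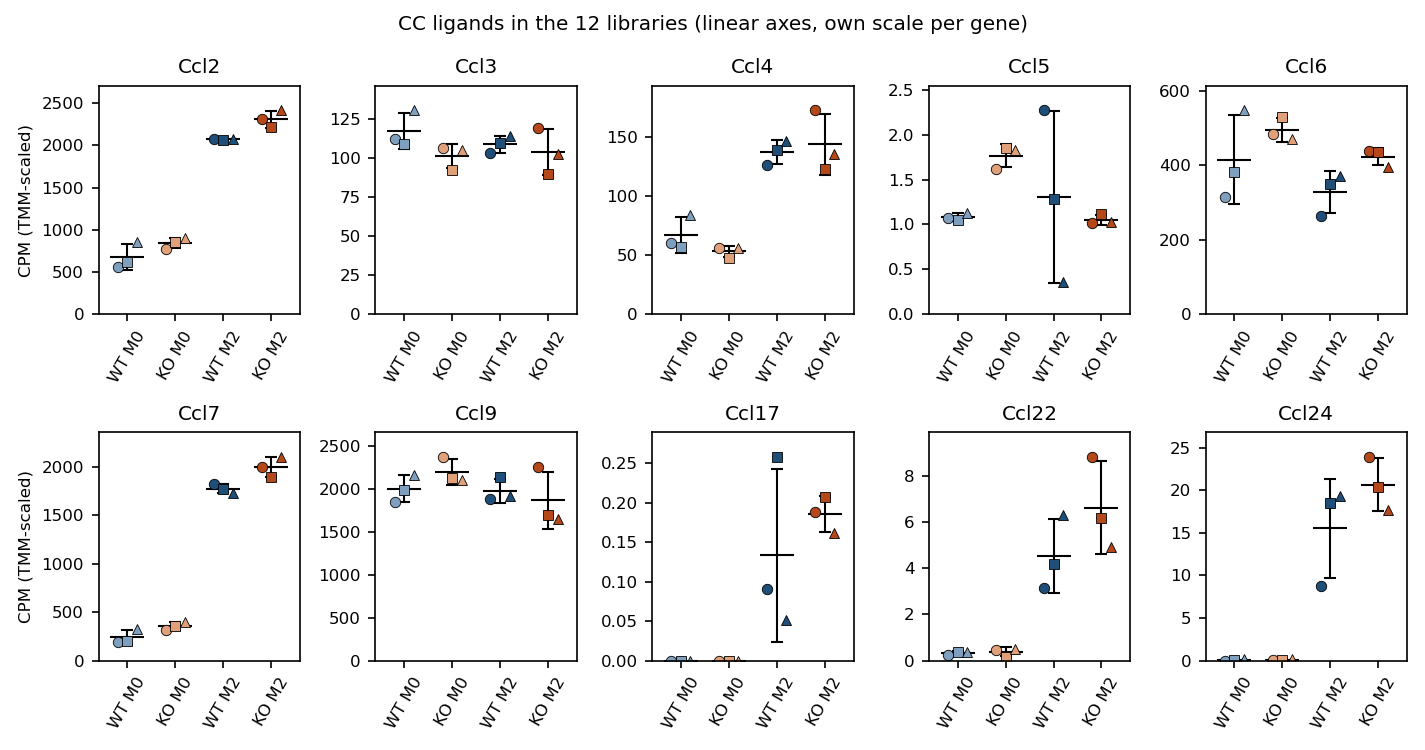
CPM of each ligand in the 12 libraries, on linear axes with a scale of its own per gene, with circles, squares and triangles for replicates 1, 2 and 3 and black bars for mean and SD (n = 3). For Ccl2, Ccl4, Ccl7, Ccl22 and Ccl24 every M2 library lies above every M0 library, and the WT M0 triangle is the highest WT M0 point for the 9 ligands that were tested.

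The monocyte attractants Ccl2 and Ccl7 are neighbours on chromosome 11 of GRCm38, at chr11:82035571-82037453 and chr11:82045712-82047525 on the forward strand, with 8.3 kb between them. Ccl2 was measured at 561, 617 and 851 CPM in WT M0 and at 2077, 2060 and 2083 CPM in WT M2. In KO it was measured at 776, 855 and 901 CPM in M0 and at 2308, 2216 and 2416 CPM in M2. All M2 libraries were thus above all M0 libraries, and the WT M2 libraries lay closer together than any other group. The log2 fold change was 1.62 (SE 0.12, edgeR adjusted p = 2.1e-07) in WT and 1.45 (SE 0.12, edgeR adjusted p = 4.75e-07) in KO.

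Ccl7 was measured at 191, 201 and 322 CPM in WT M0 and at 317, 361 and 397 CPM in KO M0. With IL-4 it reached 1820.5, 1767 and 1726 CPM in WT cells, against 1997.5, 1889.8 and 2099 CPM in KO cells. Its groups did not overlap between M0 and M2, and its log2 fold change was 2.90 (SE 0.17, edgeR adjusted p = 1.75e-08) in WT and 2.48 (SE 0.16, edgeR adjusted p = 5.93e-08) in KO. Across the 12 libraries Ccl2 and Ccl7 had the closest pattern of all pairs of ligands, with a Pearson correlation of log2 CPM of 0.998, over libraries that share the same 2 treatments.

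Of the tested ligands, Ccl22 and Ccl24 had the largest log2 fold changes in the edgeR fit, from the lowest levels. Ccl22, at chr8:94745590-94751699 on the forward strand, was measured at 0.259, 0.361 and 0.389 CPM in WT M0 and at 3.13, 4.17 and 6.29 CPM in WT M2. In KO it was measured at 0.478, 0.159 and 0.498 CPM in M0 and at 8.81, 6.16 and 4.90 CPM in M2. The M2 libraries did not overlap with the M0 libraries in either genotype, and the log2 fold change was 3.74 (SE 0.40, edgeR adjusted p = 6.67e-06) in WT and 4.14 (SE 0.38, edgeR adjusted p = 1.17e-06) in KO. On the scale of log2(TPM + 1), which shrinks changes of rare transcripts, these were 1.73 and 2.22 and still called.

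Ccl24, at chr5:135569937-135573049 on the reverse strand, was almost absent before IL-4, with 0, 1 and 5 counts in WT M0 and 2, 1 and 7 counts in KO M0. With IL-4 it had 194, 359 and 377 counts in WT and 635, 787 and 659 counts in KO, which was 15.5 ± 5.83 CPM and 20.7 ± 3.10 CPM. The log2 fold change was 7.72 (SE 0.54, edgeR adjusted p = 1.11e-07) in WT and 7.64 (SE 0.48, edgeR adjusted p = 3.91e-08) in KO, and it rested on these few M0 counts. Over the alternatives it ranged from 4.32 to 9.56 in WT and from 4.71 to 8.67 in KO, with the lowest value in both on the scale of log2(TPM + 1), and it was called in every one of them.

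Ccl17, the neighbour of Ccl22 at chr8:94810453-94812036 with 58.8 kb between them, was at the edge of detection. It had 0 counts in each of the 6 M0 libraries, 2, 5 and 1 counts in WT M2 and 5, 8 and 6 counts in KO M2. Against a floor of 3 counts over the 3 M0 libraries, its share of the library totals was at least 3.56-fold higher in WT M2 and at least 5.99-fold higher in KO M2. These bounds take the M2 counts as exact. The WT bound rested on WT M2 replicate 2, without which 3 counts remained, the same number as the floor, and the value was 1.96-fold. The WT and KO libraries of M2 overlapped in CPM, and no test was run on this gene.

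Promoters of 5 ligands, from 250 bases before to 50 bases after the start, were held by the RefSeq table used here (GRCm38.p6), namely those of Ccl3, Ccl6, Ccl9, Ccl17 and Ccl22. They were searched on both strands for TTCNNNNGAA, the spacing that STAT6 prefers, for TTCNNNGAA, the spacing of other STAT proteins, and for GGGANNNNCC, a loose form of the NF-κB site. These letters occur in 7.0%, 8.3% and 20.7% of the 32851 promoters of the table. Matches are in capitals in the promoters of Ccl17 (chr8:94810203-94810502) and Ccl22 (chr8:94745434-94745733), and Ccl9 (chr11:83578587-83578886, reverse strand) is shown as the most abundant ligand that was not called with IL-4.
Ccl17: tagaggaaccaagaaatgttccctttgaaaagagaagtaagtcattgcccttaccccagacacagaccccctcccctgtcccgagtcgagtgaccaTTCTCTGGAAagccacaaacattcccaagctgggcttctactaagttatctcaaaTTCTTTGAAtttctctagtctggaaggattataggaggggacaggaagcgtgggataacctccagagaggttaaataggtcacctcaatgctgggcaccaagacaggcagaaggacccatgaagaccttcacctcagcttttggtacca
Ccl22: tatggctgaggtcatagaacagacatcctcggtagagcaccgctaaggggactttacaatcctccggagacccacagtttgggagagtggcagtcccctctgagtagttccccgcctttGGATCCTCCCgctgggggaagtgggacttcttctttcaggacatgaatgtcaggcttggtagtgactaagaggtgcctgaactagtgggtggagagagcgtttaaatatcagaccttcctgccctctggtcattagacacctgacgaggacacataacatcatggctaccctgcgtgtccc
Ccl9: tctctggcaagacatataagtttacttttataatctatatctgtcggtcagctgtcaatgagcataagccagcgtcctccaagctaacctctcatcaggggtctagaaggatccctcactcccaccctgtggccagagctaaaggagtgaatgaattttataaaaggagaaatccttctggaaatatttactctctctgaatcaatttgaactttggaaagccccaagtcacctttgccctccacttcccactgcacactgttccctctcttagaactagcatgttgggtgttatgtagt
Ccl17 holds TTCTCTGGAA at 154 bases and TTCTTTGAA at 99 bases before the start. Ccl22 holds the NF-κB letters on the reverse strand at 131 bases before the start and neither STAT spacing. None of the 3 motifs was found in the windows of Ccl3, Ccl6 and Ccl9, and a match or its absence in so short a window is a description only.

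Ccl4, also known as MIP-1β, rose as well, though from a higher level. It was measured at 60.3, 56.4 and 84.1 CPM in WT M0 and at 126, 139 and 146 CPM in WT M2, and at 55.8, 47.9 and 55.9 CPM in KO M0 and 172, 123 and 135 CPM in KO M2. The groups did not overlap, and the log2 fold change was 1.04 (SE 0.15, edgeR adjusted p = 8.06e-05) in WT and 1.43 (SE 0.15, edgeR adjusted p = 4.02e-06) in KO.

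Its neighbour Ccl3, which starts on the other strand with 13.2 kb between the genes, was not called. Ccl3 was measured at 113, 109 and 131 CPM in WT M0 and at 103, 110 and 114 CPM in WT M2, with 106, 92.5 and 105 CPM in KO M0 and 120, 89.7 and 103 CPM in KO M2. All groups overlapped between treatments. The log2 fold change was -0.11 (95% interval -0.32 to 0.11, edgeR adjusted p = 0.399) in WT and 0.036 (95% interval -0.18 to 0.25, edgeR adjusted p = 0.784) in KO. Across the 12 libraries the log2 CPM of Ccl3 and Ccl4 had a Pearson correlation of only 0.167.

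The CCR1 ligands Ccl6 and Ccl9 are also neighbours, with 9.2 kb between them, and were abundant in all groups. Ccl9 was measured at 1852, 1995 and 2169 CPM in WT M0 and at 1882, 2141 and 1926 CPM in WT M2. In KO it was measured at 2377, 2129 and 2106 CPM in M0 and at 2257, 1699 and 1654 CPM in M2. The log2 fold change with IL-4 was -0.016 (SE 0.11, edgeR adjusted p = 0.917) in WT and -0.24 (SE 0.11, edgeR adjusted p = 0.0805) in KO. M0 and M2 libraries of the same number deviated together from their group means and were taken as pairs, and with the pair as a block Ccl9 was called lower in KO (log2 fold change -0.25, edgeR adjusted p = 0.00699) but not in WT (edgeR adjusted p = 0.858), and in KO 5 of 14 alternatives, the block included, gave this call. The M2 value was below the M0 value in 3 of 3 KO pairs and in 1 of 3 WT pairs.

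Ccl6 was measured at 315, 382 and 548 CPM in WT M0 and at 263, 351 and 371 CPM in WT M2, and at 486, 530 and 470 CPM in KO M0 and 439, 436 and 396 CPM in KO M2. The M2 value was below the M0 value in all 3 pairs of either genotype, and the KO groups did not overlap. The log2 fold change of -0.34 in WT (SE 0.17, edgeR adjusted p = 0.115) and of -0.23 in KO (SE 0.17, edgeR adjusted p = 0.282) did not pass the test. With the pair as a block both did, at -0.32 (edgeR adjusted p = 0.00404) and -0.23 (edgeR adjusted p = 0.0195), so that 6 ligands were then called in either direction in WT and 7 in KO. Without 1 library, the WT value ran from -0.50 (edgeR adjusted p = 0.016), without WT M0 replicate 1, to -0.088 (edgeR adjusted p = 0.591), without WT M0 replicate 3. In KO a fit of its 6 libraries alone also called Ccl6 lower (edgeR adjusted p = 0.00706).

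Ccl5, the T cell attractant also known as RANTES, was scarce and scattered. It had 33, 32 and 29 counts in WT M0 but 50, 25 and 7 counts in WT M2, and 44, 70 and 66 counts in KO M0 and 27, 43 and 38 counts in KO M2. The WT M2 libraries ran from 0.358 to 2.27 CPM, a wider relative spread than in any other group. IL-4 gave a log2 fold change of 0.29 (95% interval -0.60 to 1.18, edgeR adjusted p = 0.591) in WT and -0.75 (95% interval -1.57 to 0.077, edgeR adjusted p = 0.118) in KO. In KO the M2 libraries were below all M0 libraries, at 1.02 to 1.11 against 1.62 to 1.86 CPM, and a fit of these 6 libraries alone called Ccl5 lower (log2 fold change -0.75, edgeR adjusted p = 0.00492), the single one of 14 alternatives to do so. Without WT M2 replicate 3, the library with 7 counts, the WT value was 0.73 (edgeR adjusted p = 0.0281).

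**Figure D3:**
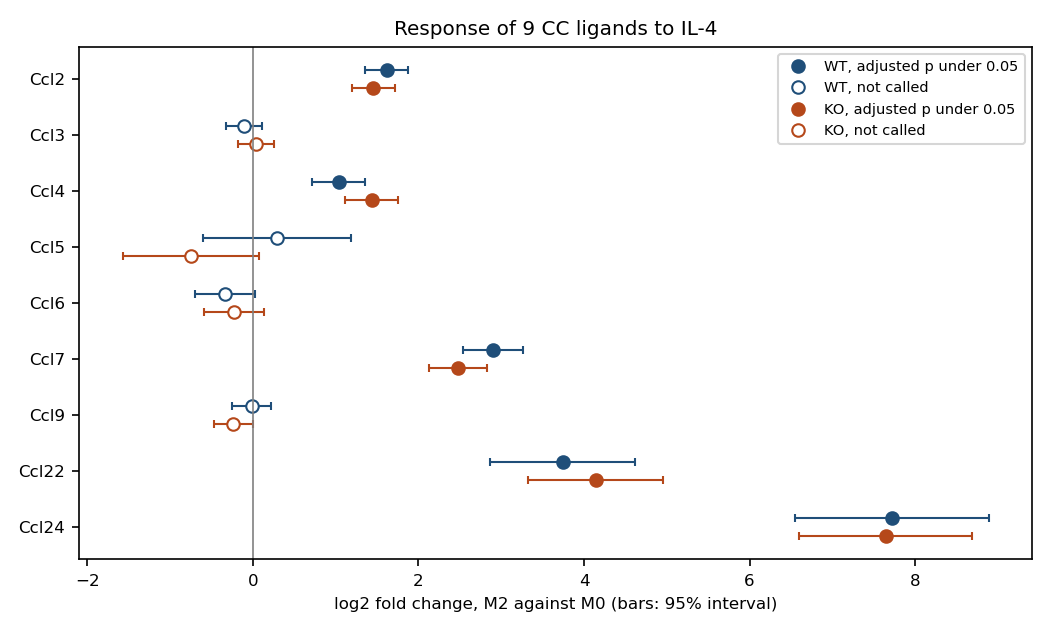
Log2 fold change of M2 against M0 for the 9 tested ligands in WT (blue) and KO (orange), with 95% intervals from the edgeR fit without pairing and filled points at an adjusted p under 0.05. Ccl2, Ccl4, Ccl7, Ccl22 and Ccl24 are filled in both genotypes, from 1.04 for Ccl4 in WT to 7.72 for Ccl24 in WT, and the intervals of the 2 genotypes overlap for each ligand.

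An interaction term, fitted over the same M0 and M2 libraries, compared the IL-4 responses of KO and WT. None of the 9 ligands was called, with edgeR adjusted p from 0.343 for Ccl7 to 0.983 for Ccl24, none had an unadjusted p under 0.05, and 3.24% of all genes were called. DESeq2 called none of them either. With the pair as a block none was called, but Ccl4, Ccl7 and Ccl9 had an unadjusted p under 0.05 (edgeR adjusted p = 0.11, 0.164 and 0.144). The intervals differed much in width. For Ccl3 the response in KO minus that in WT was 0.14 (95% interval -0.16 to 0.45) and for Ccl2 it was -0.16 (95% interval -0.52 to 0.20), whereas for Ccl24 the interval ran from -2.40 to 2.24. Ccl7 had a difference of -0.42 (95% interval -0.90 to 0.055) and Ccl4 one of 0.40 (95% interval -0.054 to 0.85).

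These values depended on 1 library. Without WT M0 replicate 3, the response of Ccl7 was smaller in KO by a difference of -0.71 (SE 0.11, edgeR adjusted p = 0.00561) and that of Ccl2 by a difference of -0.36 (SE 0.088, edgeR adjusted p = 0.0459), and both were called. The difference for Ccl4 then became 0.20 (edgeR adjusted p = 0.614) and that for Ccl3 0.058 (edgeR adjusted p = 0.888). Of 19 alternatives, this was the only 1 to call Ccl7 or Ccl2. The library was picked because the ligands were high in it, so leaving it out had to lower these differences. These p-values therefore do not test for a different response. Without WT M2 replicate 3, Ccl5 was called instead, with a difference of -1.47 (SE 0.32, edgeR adjusted p = 0.0343). With all libraries its difference was -1.04 (edgeR adjusted p = 0.36). Over the fits that left out 1 library it ran from -1.47 to -0.35, with edgeR adjusted p up to 0.774. 

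Next, KO and WT macrophages were compared within each treatment, which are comparisons that share no library with each other but that do share libraries with those of IL-4. In M0, 1 of the 9 ligands was called, where 9.78% of all genes were called, and 7 of the 9 had a log2 fold change above 0. The groups did not overlap for 3 of the 9, where this was so for 31.1% of all genes. These were Ccl5, higher in KO, and Ccl3 and Ccl4, lower in KO. The median log2 fold change of the 9 was 0.26, beside -0.00066 over all genes. Without WT M0 replicate 3 it was 0.51 beside 0.0046, a rise fixed by picking that library on the ligand values.

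The ligand called in M0 was Ccl7, with 238 ± 73.1 CPM in WT and 358 ± 40 CPM in KO. KO replicate 1, at 317 CPM, lay below WT replicate 3, at 322 CPM, so that the groups overlapped by these libraries. The difference on the log2 scale was 0.59 (95% interval 0.25 to 0.93, edgeR adjusted p = 0.0326). The call was lost in 4 of 6 fits that left out 1 library, namely without WT M0 replicate 1 or 2 and without KO M0 replicate 2 or 3, with edgeR adjusted p up to 0.127. A fit of the 6 M0 libraries alone lost it also (edgeR adjusted p = 0.0977). Without WT M0 replicate 3 the value was 0.88 (SE 0.082, edgeR adjusted p = 0.000174), a rise that follows from how that library was picked.

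Ccl2 leaned the same way, from 676 ± 154 CPM in WT M0 to 844 ± 63.6 CPM in KO M0, a log2 fold change of 0.32 (95% interval 0.064 to 0.58, edgeR adjusted p = 0.11). It was called by DESeq2 (adjusted p = 0.0484) and, with edgeR, without WT M0 replicate 3 (log2 fold change 0.52, adjusted p = 0.0008). Over the fits that left out 1 library its value ran from 0.20 to 0.52, with edgeR adjusted p up to 0.297. Ccl6 was called only without WT M0 replicate 3 (log2 fold change 0.51, edgeR adjusted p = 0.0219), against 0.26 (edgeR adjusted p = 0.371) with it. Leaving out 1 library in turn gave Ccl6 values down to 0.093, with edgeR adjusted p up to 0.747. WT M0 replicate 3 was picked because the ligands were high in it, so leaving it out had to raise the values of Ccl2 and Ccl6.

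Ccl3 and Ccl4 pointed the other way in M0. Ccl3 was at 118 ± 11.5 CPM in WT and 101 ± 7.66 CPM in KO, with a log2 fold change at -0.21 (SE 0.099, edgeR adjusted p = 0.199), which became -0.13 (edgeR adjusted p = 0.456) without WT M0 replicate 3. Ccl4 was at 66.9 ± 15.0 CPM in WT and 53.2 ± 4.60 CPM in KO, with a log2 fold change at -0.33 (SE 0.15, edgeR adjusted p = 0.188), or -0.13 (edgeR adjusted p = 0.55) without the same library. Neither passed the test in any alternative. Ccl5 was at 1.08 ± 0.0412 CPM in WT and 1.77 ± 0.131 CPM in KO, with no overlap, and the interval ran from -0.13 to 1.54 (edgeR adjusted p = 0.272), while a fit of the 6 M0 libraries alone gave 0.70 (SE 0.18, edgeR adjusted p = 0.051). Ccl9 differed by 0.14 (SE 0.11, edgeR adjusted p = 0.466), and Ccl22 and Ccl24, with 0 to 18 counts in each M0 library, were not called (95% intervals -0.99 to 1.27 and -2.37 to 3.35).

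**Figure D4:**
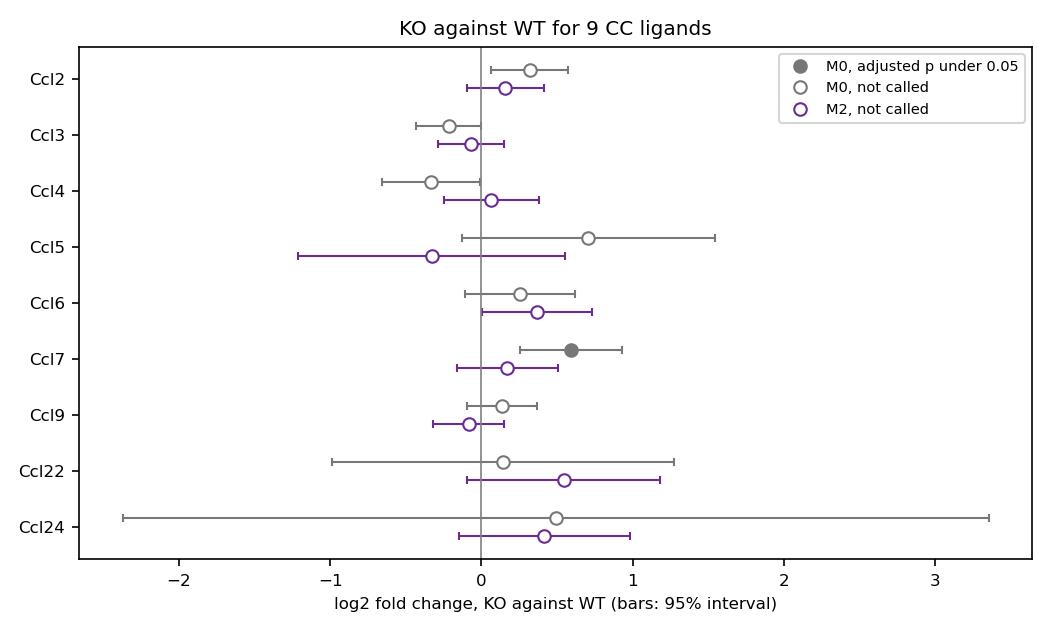
Log2 fold change of KO against WT for the 9 tested ligands in M0 (grey) and M2 (purple), with 95% intervals from the edgeR fit and filled points at an adjusted p under 0.05. Ccl7 in M0 is the single filled point at 0.59, and the widest interval is that of Ccl24 in M0, from -2.37 to 3.35.

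In M2 none of the 9 ligands was called, where 2.68% of all genes were called. A single one, Ccl6, had an unadjusted p under 0.05, and DESeq2 called none. The groups did not overlap for 3 of the 9, Ccl2, Ccl6 and Ccl7, each higher in KO, where 24.8% of all genes did not overlap. Ccl6 was at 328 ± 57.4 CPM in WT and 424 ± 23.8 CPM in KO, a log2 fold change of 0.37 (95% interval 0.0033 to 0.73, edgeR adjusted p = 0.242). Ccl2 was at 2073 ± 11.9 and 2313 ± 100.1 CPM, a log2 fold change of 0.16 (95% interval -0.097 to 0.41, edgeR adjusted p = 0.482), and Ccl7 at 1771 ± 47.3 and 1995 ± 104.6 CPM, one of 0.17 (95% interval -0.16 to 0.51, edgeR adjusted p = 0.568).

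The ligands that IL-4 had brought up from traces overlapped between the genotypes. Ccl22 was at 4.53 ± 1.61 CPM in WT M2 and 6.62 ± 2 CPM in KO M2, a log2 fold change of 0.54 (95% interval -0.096 to 1.18, edgeR adjusted p = 0.323). Ccl24 differed by 0.41 (95% interval -0.15 to 0.98, edgeR adjusted p = 0.399). Ccl5, which was not called higher with IL-4, overlapped also and differed by -0.33 (95% interval -1.21 to 0.55, edgeR adjusted p = 0.69). The most even ligands were Ccl3 with -0.070 (95% interval -0.29 to 0.15), Ccl4 with 0.067 (95% interval -0.25 to 0.38) and Ccl9 with -0.085 (95% interval -0.32 to 0.15). Without 1 library each in turn, no ligand was called in M2.

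Since the deleted protein binds mRNAs, the 3'UTRs of the ligands (longest coding transcript of GENCODE M21) were read for 2 short motifs. The pentamer ATTTA of AU-rich elements, which are known in unstable chemokine mRNAs, occurred 5 times in the 409 bases of Ccl3, or 12.2 times per kb, and 99.4% of the 11665 genes with a 3'UTR among those tested had fewer per kb. Ccl4 had 6.62 per kb, Ccl7 4.60, Ccl6 4.24, Ccl2 3.64, Ccl9 2.03 and Ccl22 1.1, beside a median of 1.2 over these genes. No ATTTA was found in Ccl5, Ccl17 and Ccl24. The densest 30 bases of the 2 neighbours with unlike responses to IL-4 are shown, with ATTTA in capitals.
Ccl3: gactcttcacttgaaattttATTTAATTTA
Ccl4: ttcagatttcctgcccctcttcttaATTTA
Ccl3 holds 2 copies in its window and Ccl4 has 1. TGGAC, the DNA form of the letters around m6A sites that IGF2BP proteins are known to read, occurred in the 3'UTRs of 4 of the 9 tested ligands (Ccl6, Ccl9, Ccl22 and Ccl24), that is in 44.4%, against 58.2% of all genes tested that have a 3'UTR. The called ligand of M0, Ccl7, has none, and neither has Ccl2. These 3'UTRs are short, with a median of 435 bases against 957 for all genes.

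Other CC ligands were looked at in the same way. Of the 14 on the list, 5 passed the filter, namely Ccl8, Ccl12, Ccl25, Ccl27a and Ccl28, and none was called between the genotypes in M0 or M2, where 9.78% and 2.68% of all genes were called. IL-4 raised 4 of the 5 in WT and 3 in KO, beside 24.9% and 26.8% of all genes called higher. Ccl8 and Ccl28 exceeded the filter in no M0 library and were tested through their M2 libraries alone, and of the other 3, Ccl12 and Ccl25 were called higher in both genotypes. Ccl12, a monocyte attractant close to Ccl2 on the chromosome, was at 6.08 ± 2.22 CPM in WT M0 and 62.2 ± 9.65 CPM in WT M2, a log2 fold change of 3.37 (edgeR adjusted p = 1.84e-08), and it rose by 3.80 (edgeR adjusted p = 5.65e-09) in KO. Ccl8, which lies next to Ccl12, went from 0.0716 ± 0.0426 to 2.75 ± 0.403 CPM in WT, with log2 fold changes of 5.23 (edgeR adjusted p = 1.37e-07) and 6.06 (edgeR adjusted p = 4.45e-08), or 3.22 and 3.41 on the scale of log2(TPM + 1). Ccl25 rose by 0.44 (edgeR adjusted p = 0.0397) in WT and 0.42 (edgeR adjusted p = 0.0363) in KO, calls that 9 and 6 of 14 alternatives lost, whereas Ccl27a was called in no comparison. Ccl28 rose by 2.84 (edgeR adjusted p = 0.0153) in WT, from 2, 1 and 2 counts in M0, and over 12 alternatives this value ran from 0.23 to 3.18 and 3 of them lost the call.

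Among the receptors of these ligands, Ccr1, the receptor of CCL3, CCL5, CCL6 and CCL9, was measured at 31.3, 36.7 and 39.6 CPM in WT M0 and at 78.6, 73.5 and 71.9 CPM in KO M0, which do not overlap. Its log2 fold change was 1.06 (SE 0.12, edgeR adjusted p = 0.000402), and it was called in each of the 14 alternatives. In M2 Ccr1 was at 113 ± 15.6 CPM in WT and 115 ± 16.8 CPM in KO, a log2 fold change of 0.021 (95% interval -0.23 to 0.27). IL-4 raised it by 1.66 (edgeR adjusted p = 1.85e-07) in WT and by 0.62 (edgeR adjusted p = 0.000589) in KO. Ccr3, the receptor of CCL24, rose with IL-4 in WT by 1.15 (edgeR adjusted p = 0.00364), beside 0.58 (edgeR adjusted p = 0.103) in KO. The difference between these responses, -0.58 (95% interval -1.43 to 0.27, edgeR adjusted p = 0.481), was not called. Ccr4, the receptor of CCL17 and CCL22, did not pass the filter.

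All 14 genes of the list of regulators of CC ligand transcription passed the filter. In M0, 7 of the 14 were called lower in KO and none higher, beside 9.78% of all genes called in either direction. The list was chosen with earlier results of these data known, so this count does not test the list against all genes. The NF-κB subunit genes Nfkb1, Nfkb2 and Relb had log2 fold changes of -0.33, -0.76 and -0.48 (edgeR adjusted p = 0.00851, 0.000151 and 0.00189). Their inhibitors Nfkbia and Tnfaip3, which are themselves NF-κB targets, had -0.26 and -0.48 (edgeR adjusted p = 0.0345 and 0.000707). The transcription factors Irf1 and Cebpb had -0.27 and -0.48 (edgeR adjusted p = 0.0284 and 0.018). Of 14 alternatives, 8 lost the call of Irf1, 6 that of Nfkbia and 3 that of Cebpb, whereas the other four were called in each. Without WT M0 replicate 3, Nfkbia was at -0.15 (edgeR adjusted p = 0.0534), Irf1 at -0.24 (edgeR adjusted p = 0.0616) and Cebpb at -0.32 (edgeR adjusted p = 0.0273). In the same libraries the log2 fold change was -0.21 for Ccl3 and -0.33 for Ccl4, which were not called, and 0.59 for Ccl7, which was. None of the 14 was called in M2, where 5 had an unadjusted p under 0.05.

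For each tested ligand the 2 other genes with the most similar log2 CPM over the 12 libraries, restricted to those averaging 5 CPM or more, were listed as a description. Ccl2 and Ccl7 shared Dhrs3 in the first place, with Pearson correlations of 0.994 and 0.996, followed by Vmp1 with 0.993 for Ccl2 and Cdk18 with 0.996 for Ccl7. For Ccl24 these were Gsto1 and Rnf130 with 0.996 and 0.995, for Ccl22 Galk2 and Dpp3 with 0.989 and 0.988, and for Ccl4 Ube2e1 and Pop4 with 0.984 and 0.983. The 4 ligands not called with IL-4 had lower values, from Ggh with 0.963 for Ccl6 and Snrpe with 0.918 for Ccl3 to Marcks with 0.888 for Ccl9 and 9530068E07Rik with 0.828 for Ccl5. All these values are over libraries that share the same 2 treatments.

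Gm17268 lies antisense over Ccl2 and had 0 counts in all libraries, and E230016K23Rik lies antisense over Ccl6 and had 8 to 17 counts per library, and whether strand was used in the counting is not given in the sources used here. Stromal markers summed to 31.2 to 55.4 CPM in WT M0 and 8.49 to 31.7 CPM in KO M0, and to 34.0 to 61.3 CPM in WT M2 and 9.58 to 27.7 CPM in KO M2, where the genotypes do not overlap. Neutrophil markers summed to 14.4 to 26.4 CPM in WT M0 and 12.3 to 13.7 CPM in KO M0, which do not overlap, and to 35.5 to 59.7 CPM in WT M2 and 40.3 to 47.3 CPM in KO M2, with Ly6g at 0 throughout. In M0, S100a9 was at 2.65 to 5.75 CPM in WT and 1.30 to 2.13 CPM in KO, and Ltf at 2.61 to 7.72 and 1.13 to 1.58 CPM. Csf3r accounted for the difference between M0 and M2, with 7.79 to 10.8 CPM in M0 and 31.2 to 48.7 CPM in M2, whereas the ranges of S100a8, S100a9 and Ltf overlapped between M0 and M2 in each genotype, and Camp reached at most 0.329 CPM. The summed dendritic cell markers were 0.259 to 0.624 CPM in M0 and 1.59 to 2.16 CPM in M2, and 1 of the 6 exceeded 1 CPM in any library. The part of such cells in the ligand values was not tested.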

How the data were processed

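The labels gave 12 libraries in 4 groups of 3. According to the submitters' processing notes and the study's methods, poly(A) RNA was sequenced with reads of 75 nt, checked with FastQC 0.11.2 and aligned to GRCm38/mm10. The quantifier's version, the annotation release and the strand setting are not given in the sources used here. The authors deposited, library by library, expected counts (estimated reads per gene, whole for the 10 ligands) and TPM in a maximum-likelihood and a posterior mean form. The 4 DESeq2 tables, which hold the authors' own fold changes and p-values, were not used beyond their gene symbols. Symbols were found for 37570 of 38887 genes.

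Expected counts were rounded, filtered with filterByExpr by group and fitted with edgeR 4.0.16 in R 4.3.3, using TMM scaling, a design with 1 term for each group of the 12 libraries and the quasi-likelihood test. The fit covered 12846 genes and estimated 8.1% biological variation. Benjamini-Hochberg adjustment ran over all of them, with calls under 0.05. F statistics supplied the SE and the 95% intervals. Libraries were independent mice within a group, and with 3 against 3 an exact permutation test of 1 gene cannot give a p below 0.1. Deviations from the group means of M0 and M2 libraries with the same number correlated at 0.539, 0.244 and 0.527 in WT and at 0.244, 0.292 and 0.338 in KO. These were taken as pairs in the replicate block, which is an alternative, while the main fit had no block and ignored the pairs.

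Alternatives were DESeq2 1.42.0, RLE size factors, no filter or one at 1 CPM in 3 libraries, a replicate block, limma 3.58.1 with trend on TPM after log2 with 1 or 0.1 added, only the 6 libraries of a comparison, leaving out each library in turn, and posterior mean TPM for the shares. The fits were tested on simulated data. Ligands, gene lists and markers were chosen with earlier results of these data known. Named genes are the 10 ligands, other CC ligands that passed the filter, CC receptors called in any comparison (1 of them is not reported here), regulators called between the genotypes, and the 2 genes most similar to each ligand. Coordinates and 3'UTRs are from GENCODE M21, promoters from RefSeq.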

Additional observations from a re-analysis of the deposited data

Results flagged for a closer look

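No ligand of the 10 was flagged. Of the other genes named, 7 had a response to IL-4 that differed between the genotypes, by the test of the interaction with edgeR and adjustment over all genes, where 3.24% of all genes were called. The lists that hold these genes were chosen with earlier results of these data known. The receptor gene Ccr1 had a response lower in KO by a difference of -1.04 (SE 0.17, edgeR adjusted p = 0.00755), from 35.9 to 113 CPM in WT and from 74.7 to 115 CPM in KO, and it was called in each of the 19 alternatives. Of the 14 regulators, 6 had differences above 0, response in KO minus that in WT, of 0.42 for Nfkb1 (edgeR adjusted p = 0.0279), 0.79 for Nfkb2 (edgeR adjusted p = 0.00363), 0.68 for Relb (edgeR adjusted p = 0.00596), 0.53 for Nfkbia (edgeR adjusted p = 0.0144), 0.45 for Tnfaip3 (edgeR adjusted p = 0.0157) and 0.82 for Cebpb (edgeR adjusted p = 0.0151). These were not all stronger rises. With IL-4, Nfkb2 fell by 1.1 on the log2 scale in WT and by 0.31 in KO, Relb by 1.26 and 0.58, and Nfkbia by 1.44 and 0.91, and Cebpb fell by 0.62 in WT beside a value of 0.20 (edgeR adjusted p = 0.149) in KO. Nfkb1 rose by 1.47 in WT and 1.88 in KO, and Tnfaip3 by 0.16, a call that 9 of 14 alternatives lost, and 0.61. Of the 19 alternatives, 9 lost the call of Nfkb1 (edgeR adjusted p up to 0.133), 3 that of Tnfaip3 and 1 that of Cebpb, and none those of Nfkb2, Relb and Nfkbia. Each of these 7 genes was also called between KO and WT in M0, which uses the same M0 libraries, and none in M2. A single regulator, Stat6, named here after its values were seen, had a difference called below 0 (-0.23, edgeR adjusted p = 0.048), which 12 of the 19 alternatives lost. Groups of 3 libraries were too small for a search for single outlying values.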

How the results depend on the processing

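With the alternatives, the 5 ligands called higher with IL-4 were called in each of the 14 fits in WT and in KO. The number of ligands called between KO and WT in M0 was 2 with DESeq2, 0 with only the 6 libraries of the comparison, and 0 to 3 without 1 library, and for the difference between the responses it was 0 to 2 without 1 library. With the replicate block, 1 ligand was called in M0, 0 in M2, 6 in WT and 7 in KO with IL-4, and 0 between the responses. The block of Ccl6 and Ccl9 is given with their values, and it changed no other call of a ligand. Between the genotypes, libraries with the same number did not deviate together (correlations from -0.088 to 0.109), so the number was no pairing there.

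Of 674 refitted log2 fold changes of single ligands, 31 changed sign, none of them among the 11 that were called. On log2(TPM + 1) and log2(TPM + 0.1), Ccl22 in M0 was -0.068 and -0.27, Ccl5 with IL-4 in WT -0.050 and -0.14, Ccl3 with IL-4 in KO -0.051 and -0.051, and the difference for Ccl24 0.39 and 0.12, and Ccl5 in M2 was 0.0025 on the latter. Without 1 library, values in M0 ran from -0.16 to 0.54 for Ccl22 and from -0.54 to 2.33 for Ccl24, and in M2 from -0.18 to 0.027 for Ccl3, from -0.082 to 0.17 for Ccl4 and from -0.76 to 0.36 for Ccl5. With IL-4 they ran from -0.39 to 0.73 for Ccl5 and from -0.074 to 0.043 for Ccl9 in WT, and from -0.074 to 0.14 for Ccl3 in KO, and the differences from -0.14 to 0.28 for Ccl6 and from -1.92 to 0.95 for Ccl24. The cause was not tested. Posterior mean TPM moved 4 of 40 shares beyond their SD, those of Ccl17 and Ccl22 in M0.

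Depth limits the rare ligands. With 0 to 18 counts of Ccl17, Ccl22 and Ccl24 in each M0 library, the intervals of the genotype difference were wide there, where a test was run. With 3 mice per group and 1 time point of 8 h, transcripts that peak earlier or later were not observed, and secreted proteins were not measured. All genotype values also carry the difference in Lyz2.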

Other observations

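Ccl11, the eotaxin gene between Ccl7 and Ccl12 on chromosome 11, did not pass the filter on low counts and was named after its values were seen. It had 0 counts in each of the 6 M0 libraries, 6, 6 and 5 counts in WT M2 and 1, 7 and 4 counts in KO M2. Against a floor of 3 counts over the 3 M0 libraries, its share of the library totals was at least 7.56-fold higher in WT M2 and at least 3.78-fold higher in KO M2. These bounds take the M2 counts as exact, and without KO M2 replicate 2 the KO value was 2.53-fold. Igf2bp3, a relative of the deleted gene, had log2 fold changes between KO and WT of -2.16 in M0 (edgeR adjusted p = 1.18e-05) and -2.01 in M2 (edgeR adjusted p = 2.13e-05) in the libraries in which the ligands were compared.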
